A study of Mus musculus with 5 samples.

Results

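The 10 genes described here encode proteins that chondrocytes, the cells of cartilage, secrete around the type II collagen network: Acan, Hapln1, Matn1, Matn3, Comp, Cnmd, Epyc, Chad, Cytl1 and Prg4. They were taken by gene symbol, whatever their values, and had 14 of the 45101 probe sets of the array. All 10 were among the 18193 genes with a probe set of their own and among the 11075 that passed a filter on mean intensity. Chad passed it narrowly, with a mean of 108 against a limit of 105.93.

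Primary chondrocytes were freed by enzymes from the ribs of FVB embryos of gestational day 18.5, plated at high density on gelatin, and kept in medium with serum, ascorbic acid and beta-glycerophosphate, which all dishes received. RNA was taken after 2, 6, 9, 12 or 15 days, with 1 array for each day, so the 5 groups differ in time in culture alone as far as the labels say. The number of embryos behind a dish, and whether the 5 arrays came from a common cell isolate, are not given there. The design asks how transcript levels compare along the culture.

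Values are linear probe-set intensities scaled by the authors to a common array mean. Intensities at or below 73.1, the 40th percentile over the whole value table, were treated as a floor, and a fold against a floor value is written "at least". A gene is given by its brightest probe set unless another is named. A pair of days, with 1 array each, has neither a replicate error nor a p-value, so differences were read against a 2-fold threshold and against the share of all 11075 genes past it. To gauge how far a single probe set can stray, 3013 genes with 2 probe sets above the filter were compared. The SD of the log2 difference from 1 of them was 0.56 from day 2 to day 6, 0.43 from day 6 to day 9, 0.35 from day 9 to day 12, 0.41 from day 12 to day 15 and 0.60 from day 2 to day 15. That spread leaves out variation between arrays and dishes.

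Aggrecan is a very large proteoglycan whose chondroitin sulfate chains hold water and give cartilage its resistance to compression. Many aggrecan molecules attach to a thread of hyaluronan, and link protein, the product of Hapln1, locks each of them in place. Matrilins and COMP bridge this gel to the collagen fibrils, and smaller leucine-rich proteins such as epiphycan and chondroadherin bind collagen or the cell surface. Chondrocytes kept flat on a dish are known to lose much of this programme with time.

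All 10 markers of the labelled cell type, chondrocytes, among them Col2a1, Col9a1, Sox9 and Ucma, lay above the floor on all 5 days. So did all 6 osteoblast markers on days 9, 12 and 15, so the floor alone does not tell cell types apart. Median intensity was between 106 and 118 on the 5 arrays, 58.8% to 61.9% of probe sets were at or above the floor, and the Actb controls had a 3'-to-5' ratio between 1.17 and 1.27. The Gapdh ratio was 0.779, 0.707, 0.616, 0.627 and 0.798 in order of day, lowest at days 9 and 12, and its part in the results was not tested. The summed intensity of the chondrocyte markers was 81723, 84818, 57955, 23027 and 32198 in order of day. Over the same days that of 10 fibroblast markers went from 7432 to 157884, that of 6 osteoblast markers from 587 to 44261 and that of 7 adipocyte markers from 3357 to a highest value of 96946 at day 12. Of 8 markers of macrophages and osteoclasts, 5 or 6 were above the floor on each day, with a sum of 2192 to 6413. Of 8 skeletal muscle markers 2 to 5 were above it, with a sum of 794 to 1922, and of 6 endothelial markers 1 to 3, with a sum of 200 to 447. Pi16 was at or below the floor on all 5 days, as were Myh3, Myh8 and Pecam1, and C1qa was too. In such bulk samples fewer cells of a type and less RNA per cell cannot be told apart, and the part of other cell types in the results below was not tested.

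**Figure D1:**
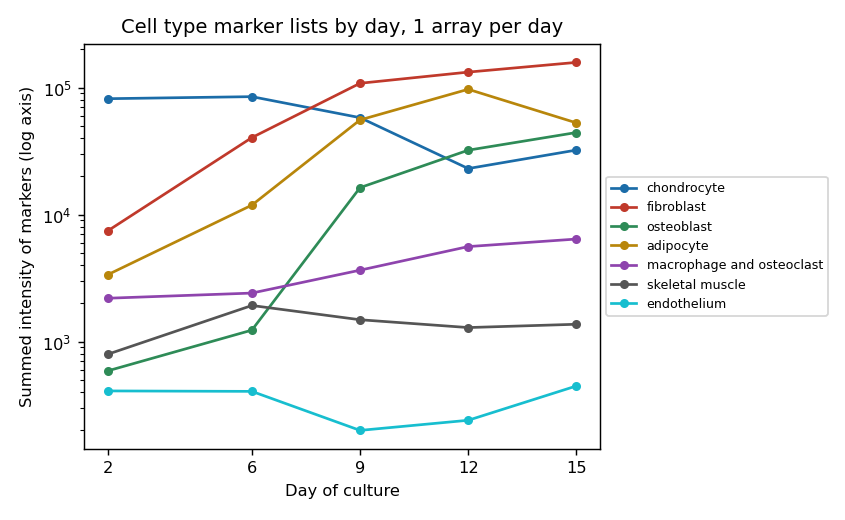
Summed intensity (log axis) of the fixed marker lists on each day of culture, 1 array per day; each line is a cell type. The chondrocyte sum has its lowest value, 23027, at day 12, and the fibroblast sum its highest, 157884, at day 15.

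The genes for the aggregate itself were highest at day 2 and lowest at day 12. From day 2 to day 15 the intensity of Acan was 19492, 11052, 2092, 723 and 2328. It was 27.0-fold lower at day 12 than at day 2, and 3.22-fold higher at day 15 than at day 12. The largest single step was from day 6 to day 9, 5.28-fold lower, where only 6 of 11075 genes had a lower log2 difference. Days 9 and 15 differed by 0.15 on the log2 scale, less than the probe-set SD of 0.42 for those days.

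Hapln1 was read by 4 probe sets, which had the same order of days. The brightest had 8266, 5298, 4078, 1097 and 1798, so that day 15 was 4.60-fold below day 2. Its large step came later than that of Acan. From day 6 to day 9 it was only 1.30-fold lower, and from day 9 to day 12 it was 3.72-fold lower. Over the 4 probe sets the day 9 to day 12 difference was -1.76 ± 0.13 on the log2 scale (SD over 4 probe sets on the same arrays), with a range from -1.89 to -1.59. From day 12 to day 15 all 4 were higher, by 0.34 to 0.98, none of them 2-fold.

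The matrilins, adaptor proteins that form filaments between collagen and aggrecan, did not follow the aggregate in the first week. Matn1 had 213, 1154, 2255, 874 and 745, so it was 10.6-fold above day 2 on day 9 and 3.50-fold above it on day 15. Its order of days was 9, 6, 12, 15 and 2, and day 12 differed from its neighbours 6 and 15 by less than the probe-set SD. Matn3, read by 2 probe sets, had 2664, 3752, 4750, 1168 and 2031 by the brighter and 2538, 3507, 3220, 1186 and 2040 by the other. Both put day 12 lowest, 4.07-fold and 2.71-fold below day 9, while they disagreed on whether day 6 or day 9 was highest. Day 15 was 1.31-fold and 1.24-fold below day 2, within the probe-set SD of 0.60 on the log2 scale.

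Comp encodes cartilage oligomeric matrix protein, a pentamer of the thrombospondin family that binds collagen fibrils in cartilage, tendon and ligament. It had 813, 14232, 7901, 9864 and 12248, with day 2 far below the other 4 days. Day 6 was 17.5-fold above day 2, and 16 of 11075 genes had a larger difference in that step. From day 6 onward no pair of days differed 2-fold, and neighbours in its order, days 6, 15, 12 and 9, each differed by less than the probe-set SD.

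Of the leucine-rich members, Epyc, epiphycan of the growth plate, had 14566, 14787, 11098, 4158 and 2902. Days 2, 6 and 9 lay within 1.33-fold of each other, and days 12 and 15 were 3.50-fold and 5.02-fold below day 2. Chad, chondroadherin, which binds integrin and collagen, was dim. It had 264, 159, 7.65, 11.4 and 98.8, with days 9 and 12 below the floor, so that those days have only a bound. Against day 2 it was at least 3.61-fold lower on those days and 2.67-fold lower on day 15.

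Cnmd encodes chondromodulin, a membrane-bound precursor of a cartilage factor that restrains blood vessel growth. It had 16036, 40929, 21048, 8319 and 4845, highest at day 6 and 8.45-fold lower at day 15. Cytl1, a small secreted protein made by chondrocytes, had the same order of days with a wider range: 470, 3510, 1057, 397 and 93.3. In that order days 9 and 2 of Cnmd, and days 2 and 12 of Cytl1, differed by less than the probe-set SD. For Cytl1, day 6 was 7.47-fold above day 2, and day 15 was 37.6-fold lower than day 6. Its day 15 value lay close to the floor, and with the floor at the 60th percentile the log2 difference between days 12 and 15 was -1.13 in place of -2.09. Prg4, lubricin of the joint surface and synovium, went a different way, with 50.4, 357, 123, 106 and 660. Its day 2 value was below the floor, so day 6 was higher by at least 4.88-fold and day 15 by at least 9.03-fold. Days 9 and 12 lay between, 1.16-fold apart.

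**Figure D2:**
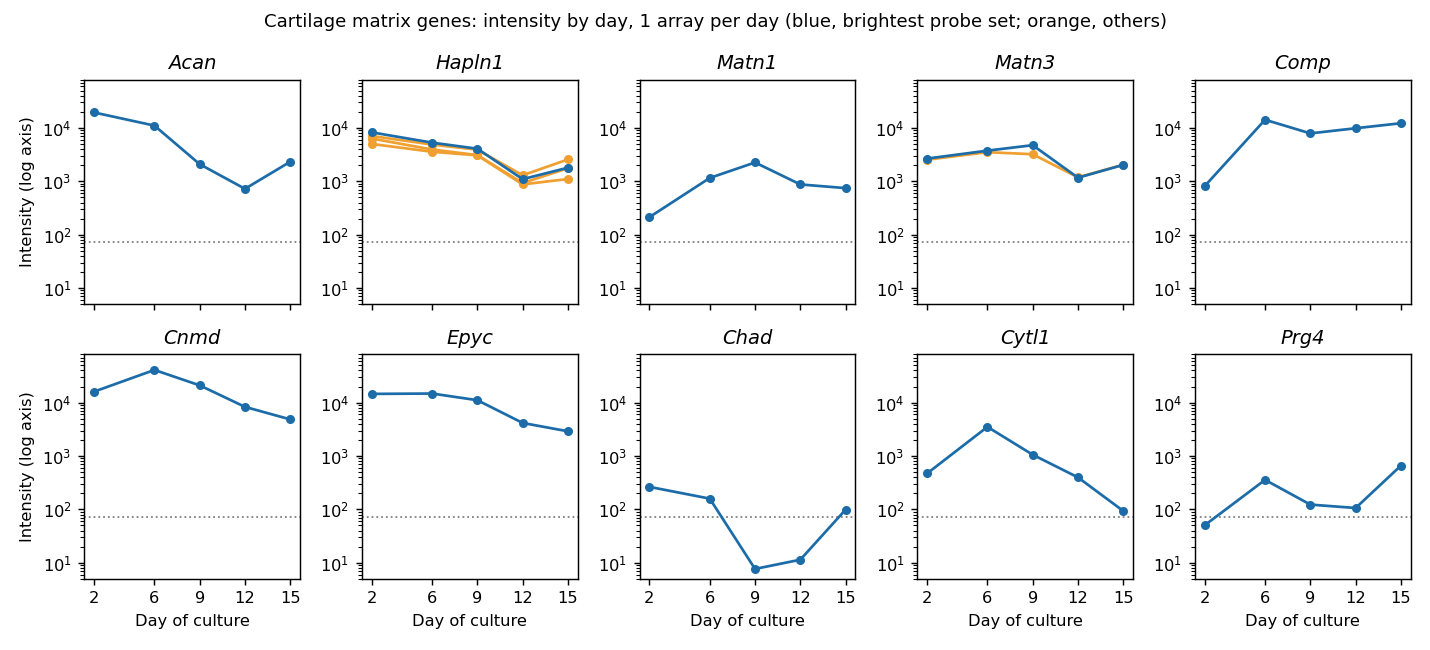
Intensity (log axis) of each of the 10 genes by day of culture, 1 array per day; blue lines are the brightest probe set, orange lines other probe sets, and the dotted line is the floor of 73.1. Acan, Hapln1 and Matn3 have their lowest point at day 12, Cnmd, Epyc and Cytl1 at day 15, and Comp, Matn1 and Prg4 at day 2.

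From day 2 to day 6, 5 of 10 were at least 2-fold higher, against 10.2% of all genes, and 0 at least 2-fold lower, against 5.7%. Those 5 were Comp, Cytl1, Matn1, Prg4 and Cnmd, while Acan was 1.76-fold, Chad 1.66-fold and Hapln1 1.56-fold lower. The median log2 difference of the 10 was 0.92, beside 0.03 over all genes. From day 6 to day 9, 4 of 10 were at least 2-fold lower, against 4.06% of all genes: Acan, Cytl1, Prg4 and Chad. Of the others Matn1 was 1.95-fold higher and Cnmd 1.94-fold lower, both just inside the threshold, and 0 were at least 2-fold higher, against 5.87% of genes.

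The step from day 9 to day 12 was the one that most of these genes shared. Few genes differed 2-fold between these arrays, 1.51% of 11075 lower and 1.72% higher, yet 7 of 10 members were at least 2-fold lower and 0 higher. Matn3 was 4.07-fold lower, Hapln1 3.72-fold, Acan 2.89-fold, Epyc 2.67-fold, Cytl1 2.66-fold, Matn1 2.58-fold and Cnmd 2.53-fold. In the order of all 11075 genes from the lowest difference, Matn3 stood at 7, Hapln1 at 10, Acan at 34, Epyc at 46, Cytl1 at 47, Matn1 at 51 and Cnmd at 55. The other 3 were Comp at 1.25-fold higher, Prg4 at 1.16-fold lower, and Chad, below the floor on both days. The median log2 difference was -1.39, beside 0.00 over all genes. The 5th to 95th percentile of all genes ran from -0.63 to 0.68. Over this step the chondrocyte marker sum was 2.52-fold lower, with 7 of its 10 genes at least 2-fold lower. The osteoblast, adipocyte, macrophage and osteoclast, and fibroblast sums were 1.97-fold, 1.74-fold, 1.53-fold and 1.22-fold higher. Single bright genes weigh heavily in such sums. At day 12 Ibsp made up 23593 of the osteoblast sum of 32126, and Ctsk 4292 of the macrophage and osteoclast sum of 5594. With day 15 in place of day 12, Acan no longer lay below day 9 (log2 difference 0.15), while 6 of 10 genes did by at least 2-fold, against 4.05% of all genes.

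From day 12 to day 15 the 10 genes parted again. Prg4 was 6.23-fold and Acan 3.22-fold higher, 2 of 10 against 4.23% of all genes, and Cytl1 was 4.26-fold lower, 1 of 10 against 3.92%. Matn3 at 1.74-fold and Hapln1 at 1.64-fold were higher but under the threshold, and Cnmd at 1.72-fold and Epyc at 1.43-fold lower. The median was 0.37, beside -0.01 over all genes, and 0.04 with the filter at the 70th percentile, which leaves out Chad and Prg4. The chondrocyte marker sum was 1.40-fold higher over the same step and the adipocyte sum was 0.544 of its day 12 value. Most chondrocyte markers did not share that rise. Of the 10, only Col2a1 was at least 2-fold higher, from 7510 to 17566, and 1, Ucma, was at least 2-fold lower. Their median log2 difference was 0.12. Thbs4, a thrombospondin gene of tendon, was 6.30-fold higher in this step, close to Prg4.

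**Figure D3:**
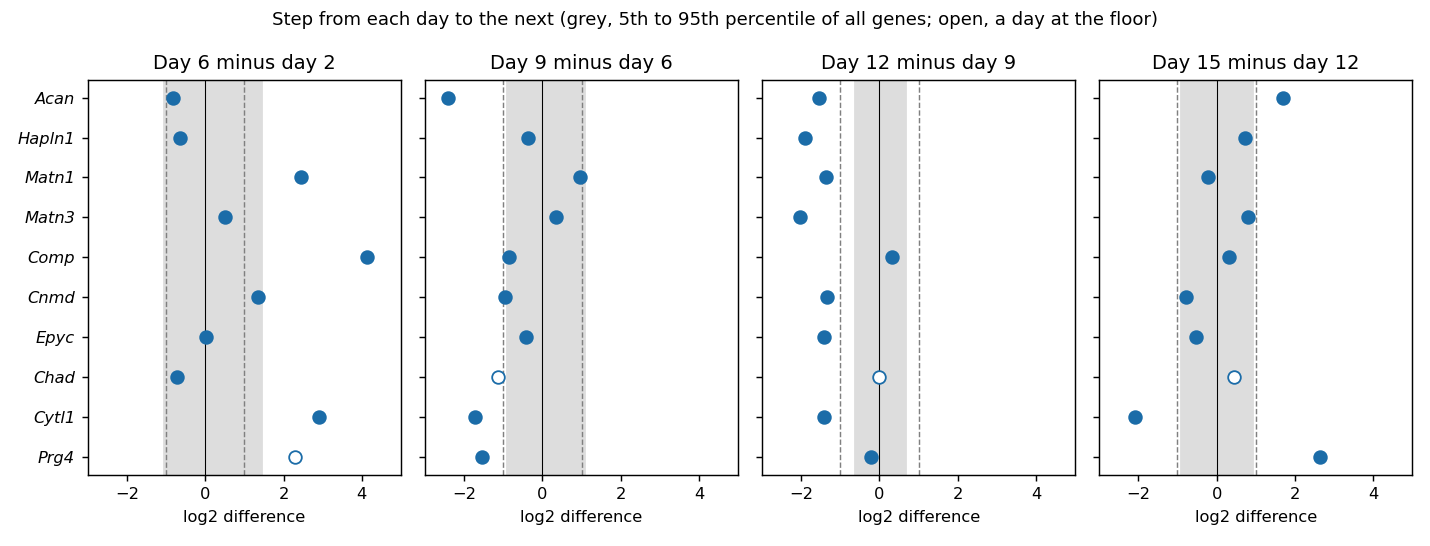
log2 difference of each of the 10 genes between consecutive days; the grey band is the 5th to 95th percentile of all 11075 genes, dashed lines mark 2-fold, and open points have a day at the floor. In the step from day 9 to day 12, 7 of the 10 genes lie beyond the lower dashed line, from -2.02 for Matn3 to -1.34 for Cnmd.

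Between the ends of the course, 6 of 10 genes lay at least 2-fold below their day 2 value on day 15, against 11.6% of all genes, and 3 at least 2-fold higher, against 16.2%. Acan, Cytl1, Epyc, Hapln1, Cnmd and Chad were lower, Comp, Prg4 and Matn1 higher, and Matn3 neither. The call of Chad was lost with the floor at the 60th percentile (-0.54 on the log2 scale) and with a pseudocount (-0.97). The median log2 difference was -1.57, beside 0.00 over all genes. Comp and Matn1 had their lowest value at day 2, and Prg4 was below the floor then. Against day 6 none of the 10 was at least 2-fold higher at day 15 (8.42% of all genes were) and 5 were at least 2-fold lower (6.16%).

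Pairs of days further apart gave these counts. Day 12 lay at least 2-fold below day 6 in 8 of 10 genes, against 4.97% of all genes, and above it in 0, against 7.09%. All 10 log2 differences of that pair were negative, with a median of -1.79. Day 9 against day 2 had 3 genes higher, against 15.1%, and 3 lower, against 10.3%. Day 12 against day 2 had 2 higher, against 16.1%, and 5 lower, against 11.4%. Day 15 against day 9 had 1 higher, Prg4, against 5.0%.

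A linear trend on day was tested over the 5 arrays. By limma, fitted to all 11075 genes, 0 of 10 members had a trend at an adjusted p under 0.05, against 0.0542% of genes rising and 0% falling. At an unadjusted p under 0.05 there were 4 falling members, against 12.7% of genes, and 1 rising, against 14.4%. The smallest p belonged to Epyc, whose slope was -0.20 log2 per day (SE 0.04, limma adjusted p = 0.0768), followed by Hapln1 at -0.21 (SE 0.05, limma adjusted p = 0.0855). Acan had a steeper slope, -0.32, with a larger error (SE 0.09, limma adjusted p = 0.105).

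Promoter sequences were looked at because 7 genes were lower in 1 step. RefSeq windows on GRCm38.p6, from 250 bases before to 50 after a listed start, were found for 8 of the 10 genes. There were 9 windows, with 2 for Epyc. The listed start was not always the annotated gene start. Before the latter lay 143 bases of the Hapln1 window, 239 of the Cnmd window and 0 of the second Epyc window. The windows had little in common in base composition. GC content ran from 32.3%, in the second Epyc window, to 74.0%, against a median of 52.7% over 32851 windows. The Acan window held 31 CG pairs, at the 89.4th percentile of all windows, where the median window had 7, and that of Cnmd had 1. The sequences that follow are bases before the annotated gene start for the aggregate genes Acan (chr7:79052976-79053225, plus strand) and Hapln1 (chr13:89540386-89540528, plus strand), and for Matn3 (chr12:8947679-8947928, plus strand) and Epyc (chr10:97643818-97644067, plus strand). Acan and Epyc are the GC-rich and AT-rich ends of the set, and Matn3 had the lowest difference in the shared step. Capitals mark matches on either strand to 4 short words, which are spelled out after the sequences.
Acan: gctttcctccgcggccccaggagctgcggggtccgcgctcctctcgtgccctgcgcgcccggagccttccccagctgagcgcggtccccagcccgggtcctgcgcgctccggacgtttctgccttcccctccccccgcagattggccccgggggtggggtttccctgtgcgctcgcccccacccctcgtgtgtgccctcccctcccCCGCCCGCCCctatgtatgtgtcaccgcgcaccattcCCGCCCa
Hapln1: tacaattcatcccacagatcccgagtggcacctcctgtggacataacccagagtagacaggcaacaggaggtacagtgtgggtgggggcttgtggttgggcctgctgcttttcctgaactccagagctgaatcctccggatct
Matn3: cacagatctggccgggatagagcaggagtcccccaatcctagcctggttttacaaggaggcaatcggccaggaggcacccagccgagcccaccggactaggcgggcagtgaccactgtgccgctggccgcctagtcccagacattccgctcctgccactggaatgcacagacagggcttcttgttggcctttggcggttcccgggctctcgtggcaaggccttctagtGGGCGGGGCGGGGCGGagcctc
Epyc: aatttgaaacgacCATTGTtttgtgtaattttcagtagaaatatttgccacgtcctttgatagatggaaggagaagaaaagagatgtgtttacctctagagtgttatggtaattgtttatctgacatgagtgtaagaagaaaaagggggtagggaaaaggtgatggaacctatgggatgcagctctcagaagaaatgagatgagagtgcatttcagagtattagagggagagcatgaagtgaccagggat

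The word ACAAAG, like the related word ACAATG, is among the forms of the core that the HMG box of SOX proteins, the family of the chondrocyte factor SOX9, is known to bind. Only Epyc held either, with ACAATG once in the window shown, on the reverse strand. Its second window, past the annotated gene start, had 3 matches. Of all windows 28.6% had at least 1. GGGCGG, the core of the GC box bound by SP1, was in the windows of 5 of the 8 genes, Acan, Matn1, Matn3, Chad and Cytl1, and in 35.7% of all windows. It occurred 3 times each in Acan and Matn3, and the 3 copies in Matn3 overlap end to end. The 5 windows had 55% to 74.0% GC, above the median of 52.7%, and the share of all windows was not matched for GC. Chad was not among the 7 genes lower in the shared step. TATAAA was in the window of Chad alone, and in 13.6% of all windows. Enhancers outside these windows were not searched.

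Relatives of the members by gene family were read the same way. Of 16 such genes 11 passed the filter, and at day 15 against day 2, 7 of the 11 were higher by at least 2-fold and 0 lower; their median was 1.27. These shares stand beside 16.2% and 11.6% of all genes. From day 9 to day 12, 0 of the 11 were at least 2-fold lower, near the 1.51% of all genes. Tnmd, tenomodulin of tendon and the closest relative of Cnmd, had 74.9, 753, 3598, 5888 and 5185, so that it was 69.2-fold higher at day 15 while Cnmd was 3.31-fold lower. Among matrilins, Matn2, found in many connective tissues, had 107, 227, 1453, 1889 and 1131, 10.6-fold higher at day 15. Matn4 had 1257, 2675, 3158, 2436 and 1556, with both ends within 1.24-fold.

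Thbs2, a thrombospondin of connective tissue, had 501, 4562, 3989, 5250 and 8767, 17.5-fold higher at day 15, with 3 probe sets between 3.65 and 4.13 on the log2 scale. Thbs4 was at least 8.23-fold higher and Thbs1 1.32-fold higher. Vcan, versican, which binds hyaluronan as aggrecan does but is typical of softer tissue, was 2.42-fold higher by the brightest of 8 probe sets. The other 7 gave log2 differences from -0.79 to 0.19, so its direction is not settled.

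**Figure D4:**
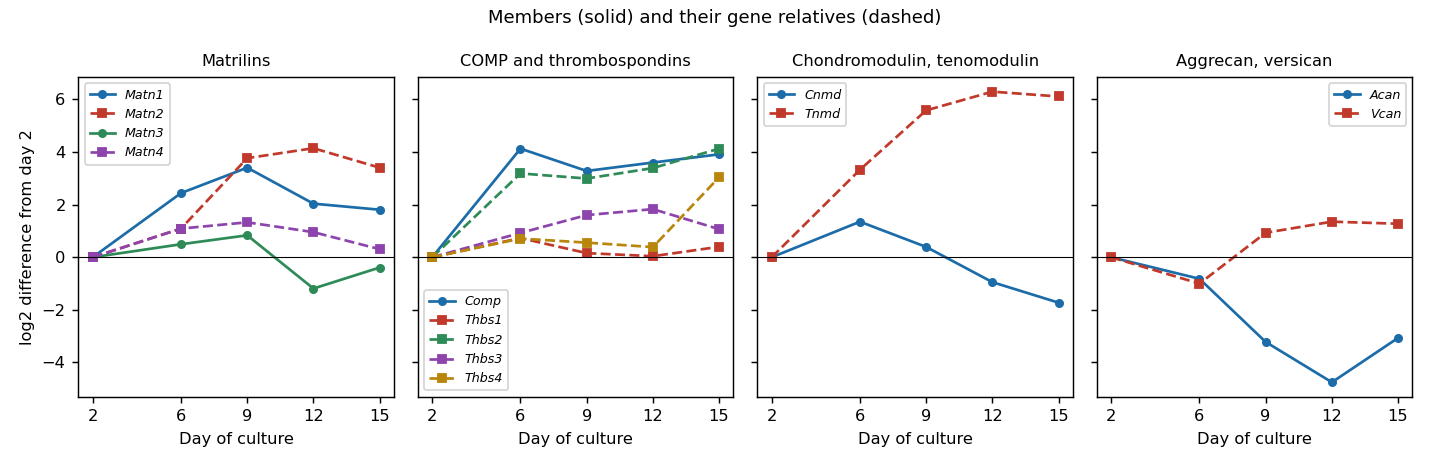
log2 difference from day 2 by day of culture for members (solid lines, circles) and their gene relatives (dashed lines, squares), by the brightest probe set of each, 1 array per day. Cnmd ends at -1.73 and Tnmd at 6.11, while Comp and Thbs2 end at 3.91 and 4.13.

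Genes with the most similar courses were found by the root mean square distance between log2 intensities, each centred on its own mean over the 5 days, among 9880 non-member genes above the floor on every day. Nearest to Acan were Moxd1, a monooxygenase-like gene, at 0.18, the lysyl oxidase relative Loxl4 at 0.55, and Papss2, which makes the sulfate donor for chondroitin sulfate, at 0.57. Moxd1 had 3632, 2164, 353, 152 and 576, so it shared the low point at day 12. Nearest to Hapln1 were Slc35d1, a transporter of nucleotide sugars needed for chondroitin sulfate, at 0.23, Rab11fip4 at 0.30 and Col2a1, the type II collagen gene, at 0.31. Nearest to Comp was Thbs2 of its own family, at 0.39, then Pdgfc at 0.43 and Gdf10 at 0.46.

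For Epyc the nearest were Sema3e, a secreted guidance factor, at 0.12, Nacc2 at 0.23 and Osgin2 at 0.25. For Cnmd they were Alcam, Osgin2 and Sema3e, each at 0.43. For Matn1 they were Irgm1, Cdkn1c and Apcdd1, each at 0.26, and for Matn3 Tmco4 at 0.25, Tbx3 at 0.30 and Llgl2 at 0.32. Cytl1 had no close gene: Alx1 was at 0.85, Ucma, a growth plate matrix gene, at 0.89 and Acaa1b at 1.01, and Cnmd at 0.73 was nearer than any of them. Among members Cnmd and Epyc were closest, at 0.43, followed by Hapln1 and Epyc at 0.46. Acan and Comp were farthest apart, at 2.89.

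A list of other cartilage matrix genes was read the same way. Of its 20 genes 17 passed the filter. From day 9 to day 12, 8 of 17 were at least 2-fold lower, against 1.51% of all genes, and 0 higher, against 1.72%. Of those 8, 7 are in the chondrocyte marker list too and are its 7 lower genes, so the 2 counts are not separate. The median was -0.58. Col2a1 had 46505, 39067, 22143, 7510 and 17566, 2.95-fold lower in that step and 2.34-fold higher in the next. Between days 2 and 15, 6 were at least 2-fold lower, against 11.6% of all genes, and 7 higher, against 16.2%. The median between those days was -0.10. The largest differences were in Otor, a small secreted protein, at least 13.3-fold higher, Vit, vitrin, 8.09-fold higher, and Fmod, fibromodulin, 7.13-fold higher.

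Of 23 genes for enzymes and transporters that build the chondroitin sulfate chains of aggrecan, 19 passed the filter. At day 15 against day 2, 8 of 19 were at least 2-fold lower, against 11.6% of all genes, and 0 higher, against 16.2%. The median of the 19 was -0.58. Slc35d1 had 1476, 689, 475, 137 and 210, 7.03-fold lower at day 15, a log2 difference of -2.81. Its other probe set gave a smaller one, -1.15. Chst11, a chondroitin 4-sulfotransferase, had 5924, 2972, 1369, 823 and 877, 6.75-fold lower. The brightest probe set of Papss2 was 5.90-fold lower, but the other 3 ran from -2.79 to 0.95 on the log2 scale. From day 9 to day 12, 1 of the 19, Slc35d1, was at least 2-fold lower, beside 1.51% of all genes.

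Of 11 genes for hyaluronan, the thread of the aggregate, 7 passed the filter. At day 15 against day 2, 1 was at least 2-fold higher and 1 lower, near the shares of all genes, 16.2% and 11.6%. Has2, the main hyaluronan synthase of chondrocytes, had 1074, 543, 713, 440 and 790, 1.36-fold lower at day 15. Cd44, the hyaluronan receptor, had 8883, 2320, 1882, 2049 and 3864, which puts day 15 lower by 2.30-fold. Its other 3 probe sets gave -0.97 to 0.00 on the log2 scale, where 0.00 means both days at the floor. Cemip, which acts in hyaluronan breakdown, was higher by at least 24.0-fold in its brightest probe set. The other 2 gave 0.00, with both days at the floor, and 1.49 on the log2 scale. Tnfaip6, a hyaluronan-binding protein, was 1.95-fold higher.

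Of 18 genes for proteases that cut aggrecan, other matrix enzymes and their inhibitors, 15 passed the filter. At day 15 against day 2, 8 lay above by at least 2-fold, beside 16.2% of all genes, and 1 below, beside 11.6%. The median was 1.12. Of the aggrecanases, Adamts4 had 122, 117, 377, 299 and 387, 3.18-fold higher at day 15 (log2 difference 0.24 by its other probe set). Adamts5 had 292, 1767, 2119, 1891 and 2102, with 7.19-fold by the brightest of 4 probe sets. The others gave log2 differences from 0.00, with both days at the floor, to 4.58. Mmp13, collagenase 3, was 28.5-fold higher, and Adamts9 at least 5.19-fold higher, though its other probe sets gave -0.63 to 0.73. From day 9 to day 12, 1 gene of the list was at least 2-fold higher, beside 1.72% of all genes. It was the dim Adamts15, at 86.7 and 181. Another 1, A2m, was at least 2-fold lower, beside 1.51%.

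Of 11 transcription factors and receptors that govern chondrocytes 8 passed the filter. At day 15 against day 2, 4 were at least 2-fold lower, 1 higher and 3 neither, beside 11.6% lower and 16.2% higher over all genes. Sox9, which drives Acan and Col2a1 transcription, had 4269, 2634, 1652, 1157 and 1291, 3.31-fold lower at day 15. Its other 2 probe sets gave -1.84 and 0.00 on the log2 scale, the 0.00 with both days at the floor and so without a direction. Its partner Sox6 was 3.19-fold lower, with other probe sets from -2.07 to -0.35. Sox5 was 1.33-fold lower, but its other 6 probe sets gave -1.11 to 0.34, so its direction is not settled. Fgfr3, a receptor that restrains chondrocyte growth, was 4.16-fold lower and Runx1 3.35-fold higher (other probe sets -0.04 to 1.68). From day 9 to day 12, 0 of the 8 were at least 2-fold lower, near the 1.51% of all genes, and Sox9 was 1.43-fold lower.

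Of 14 joint surface and tendon genes 10 passed the filter, and on day 15 their median was 2.88 above day 2 on the log2 scale. Of the 10, 7 lay at least 2-fold above day 2, beside 16.2% of all genes, and 0 below, beside 11.6%. Of those 7, Dcn and Lum are in the fibroblast marker list too, where 8 of 9 measured genes were at least 2-fold higher, and the part of fibroblasts was not tested. Of the genes listed for the joint surface, Erg, below the floor at day 2, had a log2 difference of at least 2.83. Its other probe set gave 0.00, with both days at the floor. Foxo1 had -0.40, with -0.27 to 0.00 by its other probe sets, where 0.00 again means both days at the floor. Creb5 and Gdf5 did not pass the filter. Aspn, asporin, was 123-fold and Lum, lumican, 17.6-fold higher. Tnmd and Thbs4 are in this list too. The tendon factor Scx did not pass the filter either.

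**Figure D5:**
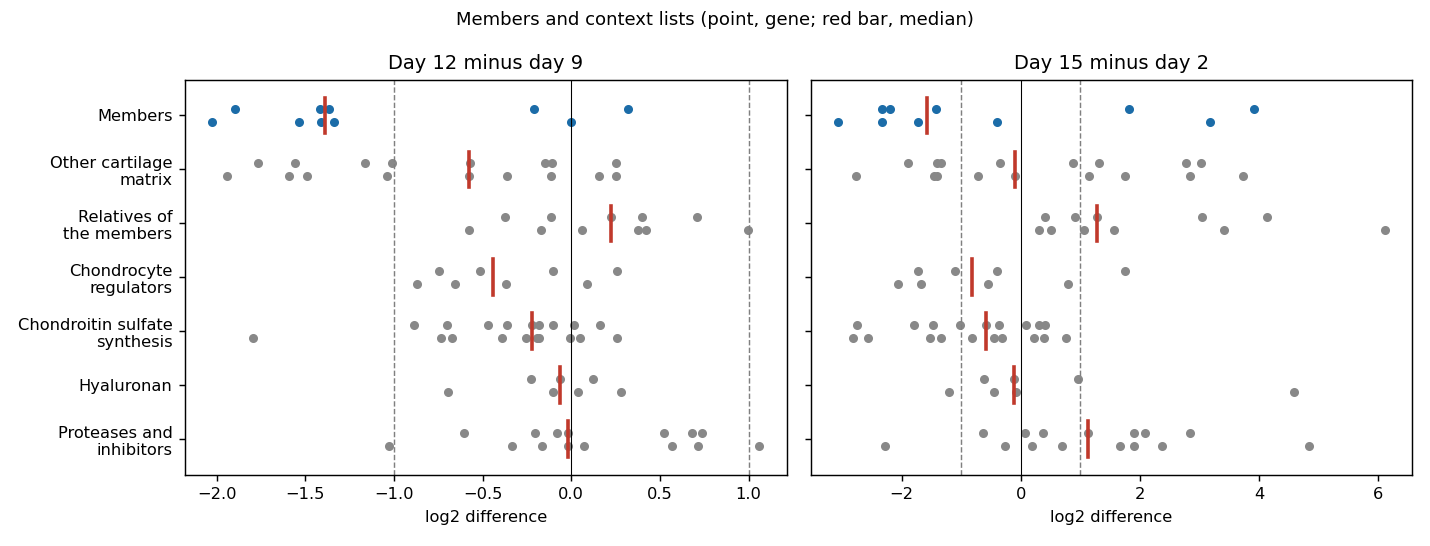
log2 difference of each measured gene (points) and the median (red bars) for the 10 members and 6 lists of related genes, from day 9 to day 12 and from day 2 to day 15; dashed lines mark 2-fold. The members have medians of -1.39 and -1.57, the relatives 0.23 and 1.27.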

How the data were processed

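Total RNA of primary rib chondrocytes was measured on 5 single-colour arrays, 1 per day of culture. The deposited values are linear intensities from MAS5, which the submitters' processing notes name without a version, and the authors scaled them: a mean trimmed by 2% on either side gave 500.003 on every array, so a shift common to most transcripts would not be seen. The number of arrays limits precision. Detection calls were not used here.

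Of 45101 probe sets 64 were controls, 34945 carried 1 gene symbol, 932 several and 9160 none in the platform annotation. Of the single-symbol probe sets, 34741 matched RefSeq genes of GRCm38.p6 by gene ID and took their current symbol. Values below the 40th percentile, 73.1, were set to it before log2, and genes were kept where the mean of the brightest probe set reached the median of 105.93. Fold differences understate dim genes. Differences between days have no test. The linear trend used limma 3.58.1 in R 4.3.3 (3 residual and 2.83 prior degrees of freedom, two-sided, Benjamini-Hochberg adjustment over 11075 genes). The fit was tested on simulated data. Other steps used Python 3.11.15, pandas 2.3.3 and matplotlib 3.10.9.

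The members, the lists of related genes and the markers were chosen with earlier results of these data known, so they are no independent support. Named were all 10 members, the 3 genes of each list with the largest difference between days 2 and 15, a fixed set of best known genes, and the 3 nearest genes of each member above the floor on every day. Fgfr3, Runx1 and other list leaders come from that rule; Col9a1 and Ucma as marker examples and Gdf5, Scx, Erg, Foxo1, Creb5 and Dcn were chosen after their values were seen. The alternatives tried were 2 other scalings, 2 other floors, a pseudocount, 2 ways to join probe sets, 2 other filters, other days, each array left out of the trend, and log2 of day.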

Additional observations from a re-analysis of the deposited data

How the results depend on the processing

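The 6 lower genes at day 15 against day 2 became 5 to 7 under the alternatives, and the 7 lower genes from day 9 to day 12 became 6 to 8. The genes counted were not always the same. With day 12 in place of day 15, Cnmd (log2 difference -0.95) and Cytl1 (-0.24) fell short of 2-fold, while Matn3 (-1.19) passed it. With day 6 in place of day 2, Chad (-0.69) fell short. No alternative gave a member a linear trend (0 by limma over 15 settings at an adjusted p under 0.05, with 2 to 5 at an unadjusted p under 0.05; leaving out each array in turn gave 0 to 0). The alternatives for single steps were chosen after seeing the data.

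Between days 2 and 15 raising the floor to the 60th percentile gave a member median of -0.96. The count of genes at least 2-fold higher was 0 with day 6 in place of day 2 and 1 with days 12 and 15 averaged against days 2 and 6. With day 6 in place of day 2, Matn1 reversed to -0.63 and Comp to -0.22 on the log2 scale. From day 6 to day 9, arrays scaled to a common median gave 1 higher gene, and the floor at the 60th percentile and the filter at the 70th each gave 2 lower ones. From day 9 to day 12, day 15 in place of day 12 gave 1 higher gene and turned Acan to 0.15, and day 6 in place of day 9 gave a median of -1.79. From day 12 to day 15, the filter at the 70th percentile, which leaves 8 members, gave 1 higher gene and a median of 0.04. The other days and fewer genes are those alternatives' own construction; for the rest the cause was not tested. Scaling to a common median moved the median of all genes by 0.14 from day 2 to day 15 and from day 6 to day 9, and left Chad below the filter. Chad, Prg4 and, at day 15, Cytl1 lie close to the floor. Under the other settings Cytl1 ran from -2.09 to -1.13 between days 12 and 15. Against day 2 on day 15 the higher floor gave it -1.37 and a pseudocount -1.71, in place of -2.33. No paired analysis was possible because each day had 1 array.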
